A study of Mus musculus with 12 samples.

Results

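The major urinary protein (Mup) genes are the subject here: every row of the deposited count table whose symbol is Mup followed by a digit or by -ps. The rule found 49 genes among the 55450 in the table, of which 22 are protein-coding (Mup1 to Mup22) and 27 are pseudogenes. The rule uses the symbols only, but the family was picked for description with earlier results of these data known. Of these, 38 had 1 count or more somewhere in the table, and 11, all of them pseudogenes except Mup4, were at 0 in all 12 libraries.

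Total RNA of brain and of liver was sequenced from male mice aged 7 to 9 weeks that carried the vault RNA gene Vaultrc5 (genotype Vaultrc5+/+, called wild type in the genotype label and flx in the titles) or lacked it (Vaultrc5-/-, knockout). There were 4 groups of 3 libraries each: wild-type brain, knockout brain, wild-type liver and knockout liver. The labels name no strain and no treatment and do not say whether libraries with 1 number come from 1 animal, nor that the libraries of a group come from separate animals. The p-values below therefore measure the spread between these libraries, which may in part be technical. As a check of the genotype, the wild-type livers held 33, 39 and 48 counts of Vaultrc5 and the wild-type brains 4, 1 and 4, while all 6 knockout libraries were at 0. The hepatocyte gene Alb had between 714287 and 1350529 counts in a liver and at most 5 in a brain, and the neuronal gene Snap25 had between 31003 and 40259 counts in a brain and at most 3 in a liver. The total count of a library lay between 14844971 and 18567381 for brain and between 23247449 and 27155480 for liver.

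Major urinary proteins are small lipocalins, barrel-shaped proteins with a pocket that holds volatile ligands. In the male mouse the liver makes them in large amounts and secretes them into the blood, and they pass into the urine, where they carry and slowly release pheromones. Their genes are known to be driven by pulses of growth hormone acting through the transcription factor STAT5B, more strongly in males than in females. Mup20 encodes darcin, which is itself a male pheromone, while Mup4 and Mup5 are known mainly from secretory glands of the head.

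The genes lie in 1 cluster on chromosome 4. In the GENCODE M21 annotation of the GRCm38 build, 48 of the 49 lie between 59956804 and 62150863, and the processed pseudogene Mup-ps22 lies on chromosome 11 (55123695 to 55123937). Mup4 and Mup6 open the cluster, the near-identical central genes from Mup7 to Mup19 follow, with Mup22 among them, and Mup5, Mup20, Mup3 and Mup21 close it. The coding genes lie on the minus strand except Mup6. Among the 16 coding genes whose transcripts shared most of their sequence, the 120 pairs of coding sequences were 98.16% to 99.82% identical. Pairs of one of these 16 with one of the other 6 coding genes (Mup3, Mup4, Mup5, Mup6, Mup20 and Mup21) were 82.59% to 91.34% identical, and Mup3 and Mup21 were 94.75% identical to each other.

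The first set of sequences shows what a read has to go on. They are the same 75-base stretch of the coding sequence in 9 genes that the results turn on, 5′ to 3′ on the transcript, from the GENCODE M21 transcripts; bases that differ from Mup17 are in capitals. In Mup17 the stretch covers coding bases 146 to 220.
Mup17: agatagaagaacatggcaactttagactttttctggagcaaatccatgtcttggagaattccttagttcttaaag
Mup7: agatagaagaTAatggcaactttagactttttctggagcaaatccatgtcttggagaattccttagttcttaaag
Mup15: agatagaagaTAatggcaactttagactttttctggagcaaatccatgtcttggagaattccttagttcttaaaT
Mup19: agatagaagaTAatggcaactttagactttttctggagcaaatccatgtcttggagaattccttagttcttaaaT
Mup14: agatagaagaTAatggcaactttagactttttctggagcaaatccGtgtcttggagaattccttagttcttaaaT
Mup22: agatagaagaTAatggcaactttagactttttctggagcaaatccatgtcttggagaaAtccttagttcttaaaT
Mup20: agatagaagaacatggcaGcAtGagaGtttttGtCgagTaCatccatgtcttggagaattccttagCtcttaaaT
Mup3: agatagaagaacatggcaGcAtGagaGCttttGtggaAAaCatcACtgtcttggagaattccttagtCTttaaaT
Mup21: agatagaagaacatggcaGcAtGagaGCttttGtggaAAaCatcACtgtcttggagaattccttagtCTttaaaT
Mup7, Mup15, Mup19, Mup14 and Mup22 differed from Mup17 at 2 to 4 of these 75 bases, and Mup15 and Mup19 were the same throughout. Mup20 differed at 10, and Mup3 and Mup21, which were the same as each other here, at 14.

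The sharing was measured over whole transcripts as the percentage of 75-base words of a gene's transcript that are found in no transcript of any other gene. It was 0% for Mup2, Mup15, Mup19 and Mup22, 5.41% for Mup14, 8.32% for Mup7 and 31.3% for Mup17, and did not exceed that in any of the 16 central genes. It was 56.4% for Mup20, 89.7% for Mup21, 93.2% for Mup3, 95.4% for Mup5 and 99.7% for Mup4, and every word of Mup6 was its own. Mup22 shared 92.6% of its words with Mup10 and 73.2% with each of Mup18 and Mup19. Mup20 shared 43.6% of its words with the pseudogene Mup-ps19, and Mup21 shared 10.3% with Mup3.

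The deposited values carry the mark of this sharing. They are expected counts, in which a read that fits several genes is divided among them, so that a gene can hold a fraction of a read. In the livers 163 of the 180 values above 0 of Mup genes (90.6%) lay more than 0.001 from a whole number, against 13.4% to 13.7% of the values above 0 over all genes in a liver library. Of the 20 coding genes with counts in all 6 livers, 17 had a fractional value in all 6. The sum over the 49 genes was itself 0.09 to 0.49 from a whole number in the livers. Once the counts of Gm13773, Gm13775 and Gm21286, 3 annotated genes that lie inside the cluster, were added, the sum was within 0.02 of a whole number in all 12 libraries. How a central gene's level compares with that of its neighbour therefore rests on the division of shared reads, an uncertainty that the replicate error does not cover, while the sum over the family hardly does: the added genes held 181 to 621 counts per liver library.

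The second set of sequences comes from around the annotated starts of the genes, and shows how the central genes and those at the ends of the cluster differ there. The RefSeq promoter table for GRCm38.p6 (250 bases before to 50 after each start) held 14 of the Mup genes. Searched on both strands, the word GACCCATA was in all 14, against 0.438% of the 32851 promoters in the table, and the TATA-box word TATATAA was in 13 of 14, against 3.24%. How GACCCATA was chosen is not recorded, and the 14 windows belong to closely related genes. The counts in them therefore describe shared sequence and are no test of enrichment. The 2 words do not overlap in these windows. Relative to the RefSeq start, TATATAA began at base -31 (Mup9 and Mup19) to base 12 (Mup14). In the GENCODE M21 annotation, TATATAA lies inside the annotated span of Mup2, Mup3, Mup4, Mup15, Mup17 and Mup21. The word TTCNNNGAA, the core that STAT proteins bind, was in 0 of the 14 windows and in 8.30% of all of them. The stretches run from GACCCATA to TATATAA (both in capitals), 5′ to 3′ on the gene's strand, for 3 central genes and 3 from the ends of the cluster. They lie at chr4:61595851-61595933 (Mup17), chr4:61439723-61439803 (Mup15), chr4:60139877-60139962 (Mup2), chr4:62087322-62087370 (Mup3), chr4:62150843-62150888 (Mup21) and chr4:59960690-59960741 (Mup4), all on the minus strand.
Mup17: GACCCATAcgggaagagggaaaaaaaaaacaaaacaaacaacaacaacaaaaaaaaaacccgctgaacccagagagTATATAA
Mup15: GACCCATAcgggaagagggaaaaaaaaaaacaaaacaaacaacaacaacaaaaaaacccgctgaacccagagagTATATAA
Mup2: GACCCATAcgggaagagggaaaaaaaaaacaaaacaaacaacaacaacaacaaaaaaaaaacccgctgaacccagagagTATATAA
Mup3: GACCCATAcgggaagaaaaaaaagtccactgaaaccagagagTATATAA
Mup21: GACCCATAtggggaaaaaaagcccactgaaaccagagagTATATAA
Mup4: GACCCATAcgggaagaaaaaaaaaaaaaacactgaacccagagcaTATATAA
The words were separated by 59 to 71 bases in the 9 central genes with both (Mup2, Mup9, Mup10, Mup11, Mup14, Mup15, Mup17, Mup18 and Mup19) and by 31 to 37 bases in Mup3, Mup4, Mup6 and Mup21. The bases between the words were A at 58.0% to 68.9% in those 9 genes and at 45.2% to 59.5% in the other 4.

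In liver the Mup genes were among the most abundant transcripts of the table. Together they took 4.42%, 7.74% and 3.98% of all counts in wild-type replicates 1, 2 and 3 and 6.64%, 12.2% and 3.29% in knockout replicates 1, 2 and 3. By mean CPM over the 6 livers (counts scaled to library size, here with TMM factors within liver), Mup22 ranked 7th and Mup7 8th of all genes, though within libraries Mup7 was above Mup22 in CPM in 3 of 6 livers and below it in the other 3. The 27 pseudogenes together held 195 to 660 counts per liver library, and no pseudogene exceeded 19.8 CPM in any liver. There were 16 genes with a mean of at least 100 CPM, all coding, and they are described one by one.

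**Figure D1:**
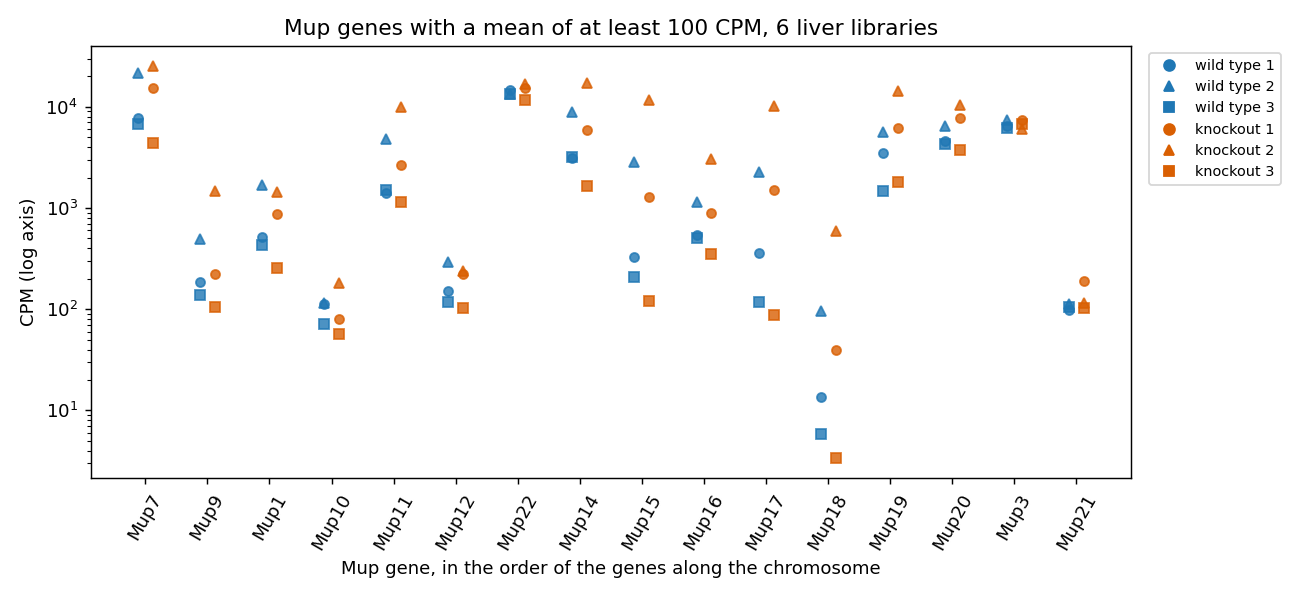
CPM (log axis) of the 16 Mup genes with a mean of at least 100 CPM in each of the 6 liver libraries, in the order of the genes along the chromosome; blue marks are wild type and orange marks knockout, with 1 shape per replicate number. Mup3 and Mup22 lie within 1.24-fold and 1.45-fold over the 6 livers, while Mup15, Mup17 and Mup18 spread over 97.0-fold to 175-fold, with knockout replicate 2 at the top.

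Mup22 and Mup3 were the 2 abundant genes with the narrowest spread. Mup22 was at 14746, 13494 and 13268 CPM in wild-type livers 1 to 3 and at 15274, 16967 and 11672 CPM in knockout livers 1 to 3. Mup3 was at 6505, 7366 and 6162 CPM in the wild type and at 7372, 5967 and 6833 CPM in the knockout. In both genes the ranges of the genotypes overlapped; knockout replicate 2 was the highest library for Mup22 and the lowest for Mup3. Mup22 had this narrow range with none of its 75-base words its own.

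Mup7, Mup14, Mup19 and Mup20 shared their 3 highest libraries. Mup7 was at 7707, 21697 and 6747 CPM in the wild type and at 15465, 25546 and 4422 CPM in the knockout. Mup14 was at 3135, 8872 and 3172 CPM in the wild type and at 5927, 17363 and 1666 CPM in the knockout. Mup19 was at 3497, 5583 and 1470 CPM in the wild type and at 6171, 14356 and 1806 CPM in the knockout. Wild-type replicate 2 and knockout replicates 1 and 2 were the 3 highest libraries for each of them, and each genotype thus held high and low libraries. Mup20 (darcin), which lies outside the near-identical block, was at 4571, 6416 and 4334 CPM in the wild type and at 7823, 10395 and 3765 CPM in the knockout, with the same 3 libraries on top and a 2.76-fold range.

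The widest spread was in Mup15, Mup17 and Mup18. Mup15 was at 327, 2844 and 209 CPM in the wild type and at 1284, 11638 and 120.0 CPM in the knockout, a 97.0-fold range. Mup17 was at 356, 2286 and 117 CPM in the wild type and at 1514, 10232 and 87.7 CPM in the knockout, a 117-fold range. Mup18 was at 13.4, 95.3 and 5.92 CPM in the wild type and at 39.6, 589 and 3.36 CPM in the knockout, a 175-fold range. All of them had 1 order of libraries, from knockout 2 over wild type 2, knockout 1, wild type 1 and wild type 3 down to knockout 3. Mup17, with 31.3% of words of its own, is the most separable of the central genes, and its spread was as wide as that of Mup15, which has none. As a share of the Mup counts, Mup15 took 8.96% in knockout replicate 2 and 0.369% in knockout replicate 3.

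The remaining abundant genes lay lower. Mup11 was at 1413, 4795 and 1496 CPM in the wild type and at 2632, 10013 and 1138 CPM in the knockout. Mup16 was at 538, 1152 and 500 CPM in the wild type and at 898, 3034 and 352 CPM in the knockout. Mup9 was at 187, 497 and 139 CPM in the wild type and at 223, 1459 and 106 CPM in the knockout. These 3 genes again had wild-type replicate 2 and knockout replicate 2 as their 2 highest libraries, and knockout replicate 3 as their lowest. Mup1 was at 522, 1703 and 431 CPM in the wild type and at 882, 1428 and 255 CPM in the knockout. Mup12 was at 153, 291 and 118 CPM in the wild type and at 224, 239 and 103 CPM in the knockout. Mup1 and Mup12 were the 2 of the 16 that peaked in wild-type replicate 2. Mup10 was at 112, 114 and 71.5 CPM in the wild type and at 80.4, 181 and 56.4 CPM in the knockout. Mup21, at the end of the cluster beside Mup3, was at 98.1, 114 and 104 CPM in the wild type and at 190, 115 and 104 CPM in the knockout, with only knockout replicate 1 apart from the rest.

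Of the other 6 coding genes, Mup2 averaged 78.5 CPM, Mup8 27.2, Mup13 3.82 and Mup6 0.759 over the 6 livers. Mup2 was at 22.2, 72.5 and 18.96 CPM in the wild type and at 42.5, 296 and 18.6 CPM in the knockout, in the same order of libraries as Mup15. Mup5 was at or below 0.170 CPM in every liver, and Mup4 was at 0. In these libraries 3 counts correspond to 0.110 to 0.129 CPM, so Mup4 and Mup5 were not detectable, or barely so, at this depth.

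Per kilobase of annotated exon, on the mean over the 6 livers, Mup22 stood at 16535 CPM per kb and Mup7 at 13163, followed by Mup20 at 6700, Mup3 at 6274, Mup19 at 5151 and Mup14 at 4840. The range over the 6 livers overlapped between each pair of neighbours in this order. Within libraries Mup7 was above Mup20 per kb in 6 of 6 livers, whereas each of the other neighbouring pairs had livers in both orders. Mup21 stood at 178 CPM per kb, far below Mup3, whose coding sequence is 94.75% identical to it. Nearly the whole of each of these 2 transcripts is unique at 75 bases, so that gap hardly depends on the division of shared reads.

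Set against the rest of the liver transcriptome, the spread of the Mup genes was wide. Of the 1284 genes with a mean of at least 100 CPM in liver, 37 (2.88%) had a highest library at least 4 times the lowest, and 10 of these 37 were Mup genes, out of 16 Mup genes at that level. The median ratio of highest to lowest library was 7.64 for the 16 Mup genes and 1.32 for all 1284. All 10 were among the 13 genes with under 50% of words of their own, whose ratios ran from 1.45 to 175 with a median of 8.80. The 3 more separable genes, Mup3, Mup21 and Mup20, had ratios of 1.24, 1.94 and 2.76. These are descriptions of 6 libraries, and how far the division of shared reads contributes to the wide ratios was not tested.

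**Figure D2:**
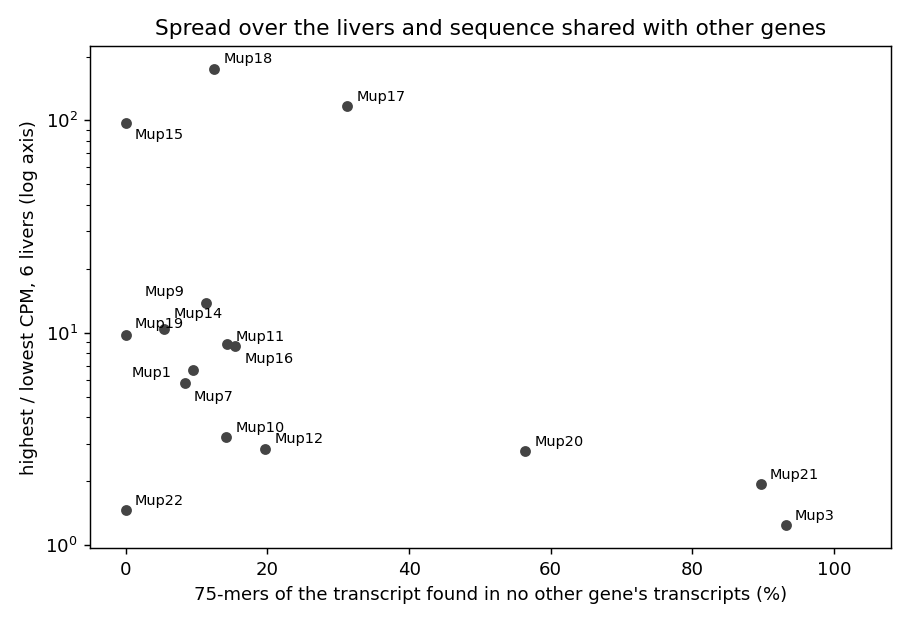
Ratio of the highest to the lowest liver library (log axis) against the percentage of 75-base words of the transcript found in no other gene's transcripts, for the 16 Mup genes with a mean of at least 100 CPM. Ratios of 4 or more occur among genes with 31.3% or less of such words, but Mup22, with 0%, is at 1.45.

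The sum over the family, which hardly depends on that division, followed the same order. It was 43930, 77447 and 38389 CPM in the wild-type livers and 66073, 129952 and 32527 CPM in the knockout livers, or 53255 ± 21133 in the wild type and 76184 ± 49493 in the knockout (SD, n = 3 each). The range was 4.00-fold, with knockout replicates holding both the highest and the lowest library. The mean difference between genotypes on the log2 scale was 0.37, against a pooled SD within genotypes of 0.80, so it was smaller than the spread between replicates. Without knockout replicate 2, the highest library, the difference was -0.13, and without wild-type replicate 2 it was 0.67. The 6 more separable coding genes summed to 10601 to 16477 CPM, a 1.55-fold range, and the other 16 coding genes to 21816 to 113448 CPM, a 5.20-fold range. Within the 16, Mup22 made up 33.6% of all Mup counts in wild-type replicate 1, 17.4% in wild-type replicate 2 and 13.1% in knockout replicate 2, so most of the difference between libraries lay in the other 15, whose sum had a 9.51-fold range.

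**Figure D3:**
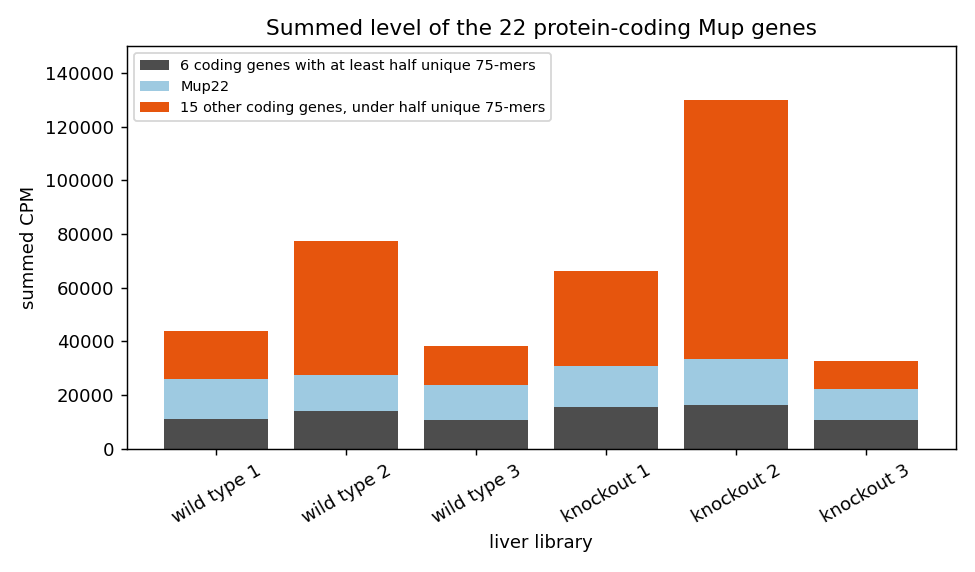
Summed CPM of the 22 coding Mup genes in each liver library (bars from 0), divided into the 6 genes with at least 50% of 75-base words of their own (grey), Mup22 (light blue) and the other 15 (orange). The sum over the coding genes runs from 32518 CPM (knockout 3) to 129925 CPM (knockout 2), and the grey and light blue parts change far less than the orange part.

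Loss of Vaultrc5 was not followed by a detectable change of any Mup gene in liver. In edgeR's quasi-likelihood test across all 15329 genes that passed the count filter, 0 genes (0.0%) passed the threshold of 0.05 on the Benjamini-Hochberg adjusted p, and 536 (3.50%) were under 0.05 before adjustment. Of the 49 Mup genes, 24 passed the filter, 20 coding and 4 pseudogenes; 0 of the 24 passed, and 0 were under 0.05 before adjustment with all 6 libraries and no block. DESeq2's Wald test called 10 genes, among them 0 Mup genes. The labels state no pairing of the livers, and a block by replicate number rests on same-numbered livers deviating together in these same data. With that block, 2 genes were called, neither of them a Mup gene, and 2 Mup genes were under 0.05 before adjustment. These were Mup19, with a log2 fold change of 0.83 ± 0.22 (SE; edgeR, adjusted p = 0.712), and Mup13, with 0.54 ± 0.22 (edgeR, adjusted p = 0.765).

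All 24 Mup genes overlapped between the genotypes, while 1506 of the 15329 genes tested (9.82%) did not. The fitted log2 fold change was above 0 for 21 and below 0 for 3 of the 24, with a median of 0.49 against 0.01 over all genes tested. The SE ran from 0.16 to 2.05. The smallest unadjusted p was that of Mup21 (0.152), with a log2 fold change of 0.37 ± 0.23 (SE), followed by Mup20 with 0.52 ± 0.37 and Mup2 with 1.65 ± 1.24; the adjusted p was 0.992 for each in edgeR's test. Mup18, Mup17 and Mup15 had the largest estimates, 2.46 ± 2.05, 2.10 ± 1.91 and 1.95 ± 1.89, each close to its own SE. With the replicate block they were 1.35 ± 0.94, 1.33 ± 0.75 and 1.14 ± 0.86. Mup2, Mup9 and Mup14 were at 1.02, 0.47 and 0.34 with it and at 1.65, 1.12 and 0.72 without, and the median over the 24 genes was 0.38 with it. Mup3 and Mup22 were at 0.01 ± 0.16 and 0.08 ± 0.19, so among the abundant members these are the estimates with the narrowest error. Mup22 has none of its 75-base words to itself, and its SE leaves out the division of shared reads. The family's direction rested on single libraries: without knockout replicate 2 the median of the Mup genes tested was -0.31 with 18 of 25 below 0, and without wild-type replicate 2 it was 0.84 with 24 of 25 above 0. Without knockout replicate 3 it was 0.79, again with 24 of 25 above 0, and Mup20 (0.83 ± 0.24) and Mup21 (0.53 ± 0.21) were under 0.05 before adjustment (SE; edgeR, adjusted p = 0.676 for both). No Mup gene was called in any of the 3 cases.

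**Figure D4:**
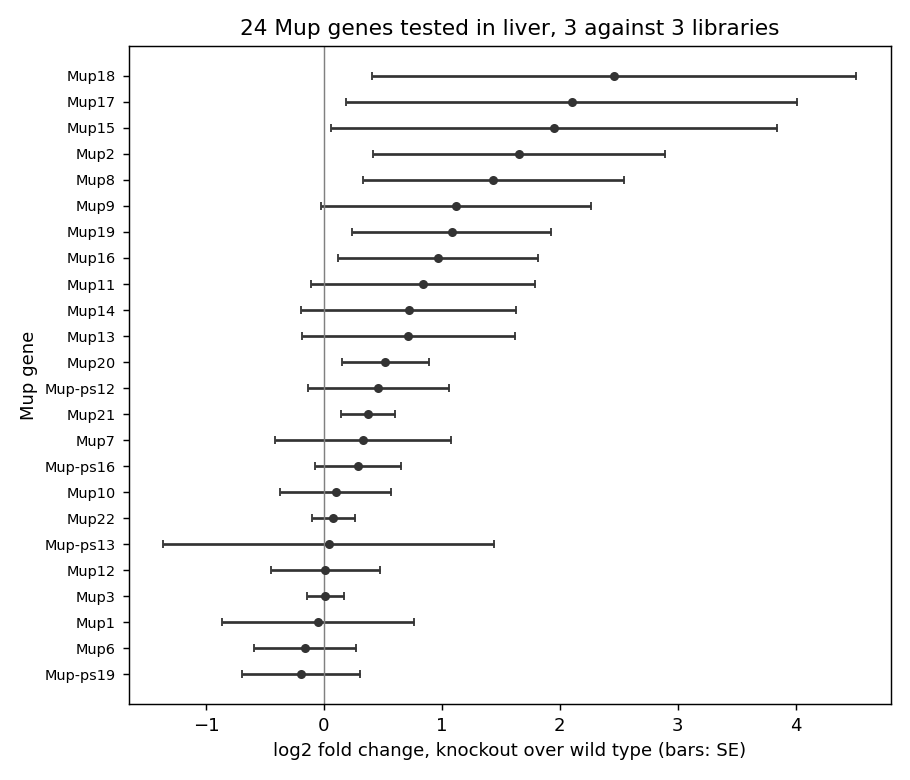
Log2 fold change of knockout over wild-type liver for the 24 Mup genes tested, with bars of 1 SE (3 libraries per group, edgeR). Estimates run from -0.19 (Mup-ps19) to 2.46 (Mup18), and the largest ones have SEs of 1.24 to 2.05.

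Matched by replicate number, the direction differed between the pairs. For replicate 1, 15 of the 16 abundant Mup genes were higher in the knockout (median log2 ratio 0.80). For replicate 2, 13 of 16 were higher (median 0.83). For replicate 3, 14 of 16 were lower in the knockout (median -0.39). The signs of replicates 1 and 2 thus went opposite to that of replicate 3, with 1 library behind each value.

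Other readouts also set knockout replicate 2 apart. All 6 of the Kupffer cell and macrophage markers (Clec4f, Cd5l, Adgre1, Marco, Vsig4 and C1qa) were highest in knockout replicate 2, as were 23.5% of the 13331 genes with a mean of at least 1 CPM; their summed level was 121 to 160 CPM in the wild type and 129 to 305 CPM in the knockout, and none was at 0. Of the 7 hepatocyte markers, Alb was lowest in that library, at 30374 CPM against 38228 to 54534 CPM in the other 5 livers, and so were Apoa2 and Ttr, while Fgb and Serpina1a were highest in it and Tat and Apoa1 were neither. These markers, most of whose sum is Alb, summed to 57381 to 71839 CPM in the wild type and 50245 to 74732 CPM in the knockout. Among the 23 other lipocalins in the table, Lcn2, an iron-withholding protein of the acute phase, was at 227 CPM in knockout replicate 2 and at 0.843 to 4.90 CPM in the other livers. Orm2, an acute-phase carrier protein, was at 269 CPM there and at 3.69 to 9.43 CPM elsewhere. Spp1, a secreted phosphoprotein listed among the cholangiocyte markers, was at 102.6 CPM there and at 18.6 to 27.6 CPM in the other livers, and Moxd1, listed as male-biased, at 279.7 CPM there and at 0 to 1.44 CPM in the others (these 4 genes were picked after their values were seen). Of the other cholangiocyte markers, Sox9 was also highest in knockout replicate 2, while Krt19, Krt7 and Epcam were highest in knockout replicate 1. Over the 5 livers other than knockout replicate 2, Lcn2 and Orm2 were, like the Mup sum, highest in wild-type replicate 2. Lcn2 was lowest in knockout replicate 1, which had the third highest Mup sum, while Orm2, like the Mup sum, was lowest in knockout replicate 3. Their part in the Mup levels was not tested. In bulk tissue, fewer cells of a type and less RNA per cell cannot be told apart.

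The regulators of Mup transcription were examined as lists, and 0 genes of any list were called between the liver genotypes. Of 13 genes of growth hormone signalling, 12 were tested, with a median log2 fold change of 0.00, and the smallest unadjusted p was that of Bcl6, a repressor that competes with STAT5, at -0.97 ± 0.63 (SE; edgeR, adjusted p = 0.992). All 19 transcription factors and cofactors listed as regulators were tested, with a median of -0.01. Cebpa, a hepatocyte transcription factor, was at 341, 318 and 309 CPM in the wild type and at 264, 266 and 244 CPM in the knockout; the ranges did not overlap, and the log2 fold change was -0.32 ± 0.10 (SE; edgeR, adjusted p = 0.992). Stat5b itself was at 62.3 to 79.1 CPM over the 6 livers, and the hormone's receptor gene Ghr at 503 to 707 CPM. Cish, Socs2 and Socs3, which encode feedback inhibitors of this signal, varied more widely. Cish was at 48.2, 6.04 and 2.80 CPM in wild-type livers 1 to 3 and at 73.3, 28.2 and 12.0 CPM in knockout livers 1 to 3. Socs2 ranged from 4.50 to 26.5 CPM and Socs3 from 3.07 to 24.9 CPM. All 3 were highest in knockout replicate 1, not in knockout replicate 2. Stat5a was at 15.5, 17.1 and 12.1 CPM in the wild type and at 18.2, 18.4 and 10.2 CPM in the knockout, with the same 3 highest libraries and the same lowest one as Mup7 (these 4 genes were picked after their values were seen). Of the 12 genes of the list with a mean of at least 1 CPM, 1, Stat5a, was highest in knockout replicate 2 and lowest in knockout replicate 3 (8.33%, against 6.14% of all genes at that level). Bcl6 was at 18.8, 93.1 and 86.9 CPM in the wild type and at 35.1, 42.1 and 24.6 CPM in the knockout, with overlapping ranges.

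Male-biased liver genes, which depend on the same hormone pattern, gave a mixed picture. Of 17 such genes 16 were tested, with a median log2 fold change of 0.34 between genotypes and 0 called. The one with the smallest p was Gstp2, a glutathione transferase gene, at 97.7, 8.01 and 555 CPM in the wild type and 3.19, 12.3 and 9.51 CPM in the knockout (log2 fold change -4.73 ± 1.68, SE; edgeR, adjusted p = 0.992). Over the 17 genes, 9 were highest in knockout replicate 2 and 8 lowest in knockout replicate 3; 6 of 17 (35.3%) met both, as did 6.14% of the 13331 genes with a mean of at least 1 CPM. The same was true of 3 of 6 Kupffer cell and macrophage markers and 2 of 4 cholangiocyte markers at that level, so this order was not particular to the male-biased list. Cyp7b1, an oxysterol hydroxylase, was at 161, 308 and 123 CPM in the wild type and at 330, 529 and 77.1 CPM in the knockout. Selenbp2, a selenium-binding protein, was at 371, 722 and 250 CPM in the wild type and at 807, 1060 and 191 CPM in the knockout. In both genes wild-type replicate 2 and knockout replicates 1 and 2 were the 3 highest libraries, as for Mup7. By contrast Hsd3b5, Slco1a1 and Cyp2d9, 3 further male-biased genes, stayed within 1.36-fold to 1.49-fold over the livers (these 5 genes were picked after their values were seen).

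**Figure D5:**
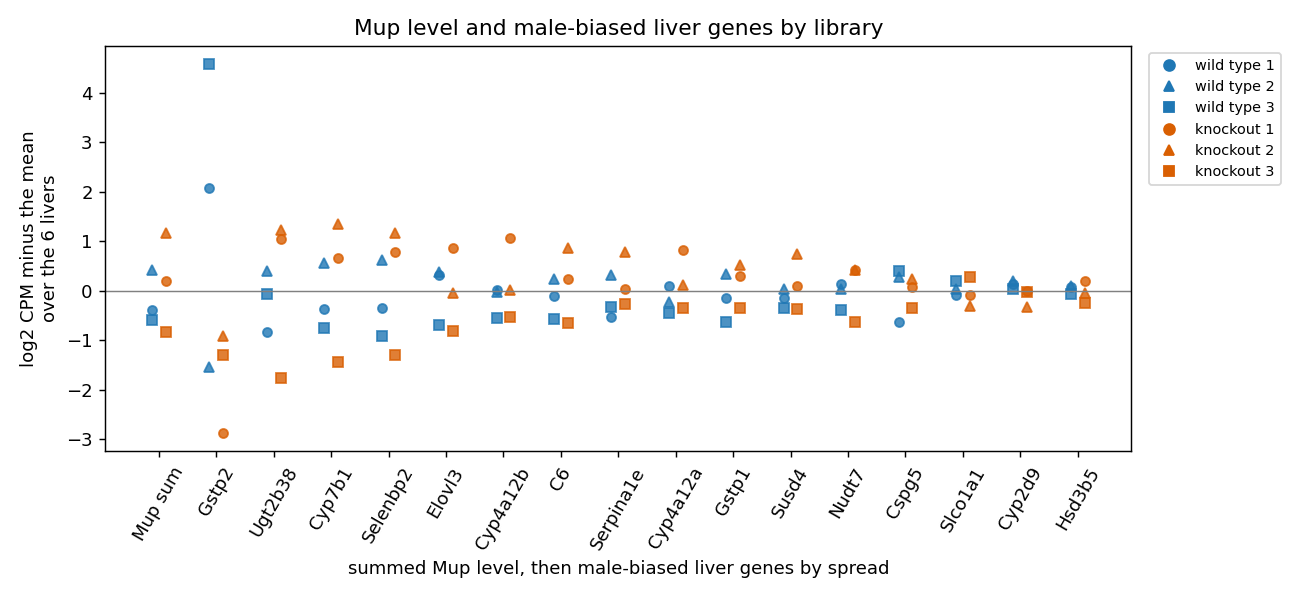
Log2 CPM minus the mean over the 6 livers for the summed Mup level (left) and for the 16 male-biased liver genes with counts in every liver, ordered by spread; colours are genotypes and shapes replicate numbers. The Mup sum, Cyp7b1 and Selenbp2 share knockout 2 as the highest and knockout 3 as the lowest library, and Slco1a1, Cyp2d9 and Hsd3b5 lie near the line in all 6 livers.

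Female-biased genes were low in these male livers. Of 18 listed, 6 were tested and the list summed to 19.5 to 59.8 CPM in the wild type and 19.4 to 47.5 CPM in the knockout. Cux2, a homeobox gene known as a female-specific liver factor, had the smallest p (log2 fold change -1.29 ± 0.59, SE; edgeR, adjusted p = 0.992). None of these genes peaked in knockout replicate 2 among the 7 with a mean of at least 1 CPM, against 23.5% of all genes at that level. Their ratio of highest to lowest liver ran from 5.94 to 199.8 with a median of 9.79.

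The neighbours on chromosome 4 did not share the Mup spread. Of 20 genes listed on both sides of the cluster, 16 were tested, with a median log2 fold change of -0.05 and 0 called. Over the 15 of them with a mean of at least 1 CPM, the ratio of highest to lowest liver ran from 1.11 to 2.04 with a median of 1.29. Alad, a heme synthesis enzyme, had the smallest p, at -0.18 ± 0.10 (SE; edgeR, adjusted p = 0.992). Among the other lipocalins 10 were tested, with a median of 0.68 and 0 called; the smallest p was that of C8g, a subunit of complement C8, at -0.21 ± 0.10 (SE; edgeR, adjusted p = 0.992).

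In brain the Mup genes were all but silent. All 49 together held 6, 7 and 7 counts in the wild-type libraries and 5.01, 5 and 5.99 counts in the knockout libraries, 36 counts in all. Mup5 was the one gene with at least 1 count in 5 of the 6 brain libraries, with 1, 2 and 3 counts in wild-type brains 1 to 3 against 2, 2 and 0 in knockout brains 1 to 3. This gene held 10 of the 36 counts. Mup3 had 5 counts in all and Mup22 3.86, while 36 of the 49 genes were at 0 in all 6 brains. Alb, a gene of hepatocytes, had 0 to 5 counts in the same libraries, which is the order of the whole Mup family there. No Mup gene passed the count filter of the brain comparison, so none was tested in it. With no filter 13 were tested, and with all 12 libraries in 1 fit 23 were; edgeR called 0 in either, and the smallest unadjusted p was 0.063 and 0.253. Among the 18075 genes tested 0 (0.0%) were called by edgeR and 0 by DESeq2, and 122 (0.675%) were under 0.05 before adjustment in edgeR.

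The summed Mup level and the abundant Mup genes were far higher in liver than in brain in both genotypes. Scaled over all 12 libraries, the summed level in wild-type liver was 252553 times that in wild-type brain (95% interval 163526 to 413461, from the counting error of the 20 brain counts). In the knockout it was 412241 times (253853 to 721222, from 16 counts), and 270270 times without knockout liver replicate 2. These intervals leave out the spread between livers. Mup7, at 0 in all brains, was at least 70976-fold higher in liver in the wild type and at least 41869-fold in the knockout, taking the lowest liver of the genotype and 3 counts per brain library as the floor. With the mean of the 3 livers, which rests on the high libraries, the bounds were 126972-fold and 145651-fold. For Mup12, also at 0 in all brains, the bounds from the lowest liver were 1238-fold and 973-fold. In edgeR's test 22 of 22 Mup genes tested were higher in wild-type liver than in wild-type brain, as were 6542 of 18850 genes (34.7%), and 21 of 21 were higher in knockout liver, as were 6611 of 18785 (35.2%). These members passed the filter only through the liver libraries, so the counts of members carry no more than the levels above. With no filter, 6858 of 30742 genes were called higher in wild-type liver and 6921 of 30478 in knockout liver. Of the Mup genes 35 were tested in each genotype, and 24 of these were called, all higher in liver. The estimate was below 0 for 1 gene in each, Mup5 in the wild type (-1.18 ± 1.18, SE; edgeR, adjusted p = 0.419) and Mup-ps22 in the knockout (-1.79 ± 1.91, SE; edgeR, adjusted p = 0.430). Mup5 had 10 counts over the 6 brains and 7.03 over the 6 livers. Library totals in place of TMM left the Mup calls at 22 and 21 and changed the split over all genes to 3997 higher and 11635 lower in wild-type liver and 3871 higher and 11668 lower in knockout liver.

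Whether the knockout effect differed between liver and brain was asked with an interaction term fitted to the 12 libraries together. edgeR called 0 (0.0%) of the 20141 genes tested, 489 (2.43%) were under 0.05 before adjustment, and DESeq2 called 1. With the replicate block 2 genes were called. Of the 23 Mup genes tested, 0 passed in any of these fits and 0 were under 0.05 before adjustment; with at most 7 Mup counts in a brain library, the brain side of that contrast holds almost no information on them.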

How the data were processed

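The values are the expected counts of each gene in each library as the authors deposited them, without normalization or pooling. STAR and cutadapt and the build mm10 are listed in the submitters' processing notes; the counting tool, its use of strand and the read length are not given in the sources used here. Per the labels' protocols, the libraries were stranded, ribosome-depleted, ligation-based and single-end. All 55450 gene identifiers and symbols matched GENCODE M21. No 2 replicates agreed within sampling noise (chi-square 27.2 to 228 times its degrees of freedom).

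Counts were rounded and tested with edgeR 4.0.16 (R 4.3.3; quasi-likelihood F-test, robust, TMM, filterByExpr by group with a minimum count of 10 and a minimum total of 15), adjusted by Benjamini-Hochberg over all genes tested, with a threshold of 0.05; the SE is the size of the log2 fold change over √F. Each contrast used its own 6 libraries and the interaction all 12. The fits of knockout against wild type in each tissue and of the wild-type tissue contrast were tested on simulated counts. The simulation gave every gene the same dispersion and divided no reads, so it does not bear on the spread of the Mup genes. CPM use TMM sizes within a tissue; floors and intervals cover counting error only. The summed level got no test. Transcript words, identities and promoter words were computed with Python 3.11 and Biopython.

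Alternatives were DESeq2 1.42.0 size factors, library totals, the DESeq2 Wald test, no filter, a mean of 1 CPM, unrounded counts, Mup rows left out of library sizes, all 12 libraries in 1 fit, the replicate block and each replicate left out; 3 subsets of the sum by sequence sharing, the knockout tissue ratio without liver replicate 2 and tissue bounds from the lowest liver were chosen after seeing the data. Replicate numbers come from the titles. Same-numbered livers of the 2 genotypes deviated together (correlations 0.27 to 0.35 over 13321 genes), which was taken as pairing; in brain they were -0.01 to 0.65 over 16676 genes, and between tissues 0.02 to 0.06, which was not.

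The genes described in every library are those with a mean of at least 100 CPM in liver, the 3 with the smallest p between liver genotypes, and those with a count in 5 or more brains. Of the growth hormone, regulator, sex-biased, lipocalin and flanking lists, the called genes or else the one with the smallest p are described. That rule was not applied to the lists of cell type markers. The members and lists were chosen with earlier results of these data known.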

Additional observations from a re-analysis of the deposited data

How the results depend on the processing

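The count of Mup genes called between genotypes was 0 under every alternative run in liver and for the interaction. In brain it was 0 in the 2 alternatives that tested any Mup gene (no filter, and all 12 libraries in 1 fit); the other brain fits tested none. Over all genes, the liver count of 0 became 10 with DESeq2's Wald test, 4 with no filter beyond 1 count and 2 with the replicate block, and was 0 to 1 with 1 replicate left out (1 without wild-type replicate 2). The interaction count of 0 became 1 with DESeq2's Wald test and 2 with the replicate block; the cause was not tested. The block changed no other count of called genes by more than 1.5 times; the genes under 0.05 before adjustment became 983 in liver, 406 in brain and 909 for the interaction. Leaving out 1 library also moved that number by over 1.5 times: to 1136 in liver and 813 for the interaction without knockout liver replicate 3, and in brain to 615 and 298 without wild-type replicates 2 and 1 and 203 without knockout replicate 1. In brain it was 289 with no filter and 280 with all 12 libraries in 1 fit. Between tissues 20 to 24 Mup genes were called in either genotype. Over all genes the calls in either direction ran from 13364 of 16788 (mean of 1 CPM) to 16401 of 30742 (no filter) in the wild type. In the knockout they ran from 13385 of 16833 to 16257 of 30478. The summed level's difference was 0.32 to 0.37 under other scalings and without the pseudogenes, 0.24 for the 6 more separable coding genes, 0.37 for the other 16 and 0.47 for these without Mup22, and -0.13 to 0.87 with 1 liver left out (lowest without knockout replicate 2, highest without knockout replicate 3).

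Of 255 values for 17 Mup genes in liver, none of them passing the threshold, 26 changed sign, 22 of them with 1 replicate left out. With 1 liver left out, the estimates ran from -0.039 to 0.22 (Mup22), -0.28 to 1.06 (Mup7), -0.062 to 0.088 (Mup3), -0.41 to 1.40 (Mup14), -0.45 to 1.66 (Mup11), -0.68 to 4.02 (Mup15), -0.20 to 4.06 (Mup17), -0.22 to 1.46 (Mup16), -0.64 to 0.84 (Mup1), -0.74 to 1.87 (Mup9), -0.24 to 0.48 (Mup12), -0.83 to 4.44 (Mup18), -0.53 to 0.40 (Mup10) and -0.31 to 2.53 (Mup2). The other 3 stayed above 0, at 0.18 to 0.83 (Mup20), 0.18 to 1.58 (Mup19) and 0.051 to 0.53 (Mup21, lowest without knockout replicate 1). Of the first 14 the lowest value came without knockout replicate 2 except for Mup3 (without knockout replicate 1) and Mup12 (without wild-type replicate 3). Library totals gave -0.026 for Mup3 and -0.035 for Mup12, no filter gave -0.001 for Mup12, and the block gave -0.048 for Mup10.

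With SEs of up to 2.05 on the log2 scale, even the largest estimate, 2.46 for Mup18, did not pass the threshold. Fractional values made up 85.02% of the Mup values above 0 over all 12 libraries at a tolerance of 0.001 and 83.6% at 0.02. Read division inside the cluster and depth in brain, 36 Mup counts over 6 libraries, limit every level of a single central gene and every brain value.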
